A study of Mus musculus with 6 samples.

Results

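The genes described here are 10 cyclins, cyclin-dependent kinases and an activating phosphatase that drive the cell cycle of germ cells: Ccna1, Ccna2, Ccnb1, Ccnb2, Ccnb3, Ccne1, Ccne2, Cdk1, Cdk2 and Cdc25c. They were taken by gene symbol, and all 10 were found among the 54532 genes of the deposited count table. RNA of whole mouse testis had been sequenced in 6 libraries, 3 from testes with the long non-coding RNA gene 1700052I22Rik knocked out (KO) and 3 from wild-type (WT) testes. The sources used here do not give the age or strain of the mice, the part of the gene that was deleted, or whether each library came from a separate animal, so p-values measure only the spread between these samples. The comparison addressed what the transcript does in spermatogenesis.

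Cyclins bind cyclin-dependent kinases and switch them on, and the pairing decides when a cell copies its DNA and when it divides. Cyclin E with CDK2 acts around the start of DNA synthesis, and cyclin B with CDK1 forms the M-phase promoting factor that carries cells into division. Spermatocytes pass a long meiotic prophase before they divide. In mice, males without cyclin A1 arrest before the first meiotic division, and CDK2 is needed at the telomeres of chromosomes in prophase.

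Depth was even, from 17635045 to 18117593 counts per library, and every pair of libraries differed by more than sampling noise. The targeted transcript had 0 counts in all KO libraries, against 185, 175 and 218 counts in WT libraries (edgeR quasi-likelihood test, adjusted p = 4.89e-07). Markers of all stages were present: 12 spermatocyte markers summed to 3480 to 3881 counts per 1000000 counts (CPM) in KO libraries and 3691 to 3927 CPM in WT libraries, and 9 round spermatid markers to 2075 to 2150 CPM in KO and 1951 to 2043 CPM in WT, without overlap. Taken singly, 0 of the 9 round spermatid markers had groups apart. No marker gene of any list was called. The summed level of 10 spermatogonial markers ran from 324 to 360.3 CPM in KO and from 341 to 359 CPM in WT, with 8 of 10 log2 fold changes below 0. For 8 Sertoli cell markers it ran from 426 to 453 CPM in KO and from 459 to 530.0 CPM in WT, without overlap, with 6 of 8 below 0. Amhr2 alone held 227 to 259 of these CPM in KO and 253 to 310 in WT. Taken singly, 0 of the 8 Sertoli cell markers had groups apart. All 7 Leydig cell markers (287 to 670 CPM in KO, 257 to 902 CPM in WT) and all 7 macrophage markers (51.5 to 65.5 CPM in KO, 60.2 to 89.7 CPM in WT) had log2 fold changes below 0, as did the 3 tested blood markers. In edgeR's test an unadjusted p under 0.05 was found, with lower values in KO, for 4 macrophage markers and 2 spermatogonial markers. The same held for 1 marker each of Sertoli cells, blood and Leydig cells, the last being the hormone gene Insl3. With higher values in KO, 1 round spermatid marker had such a p. Over all tested genes 4.63% did. The groups did not overlap for Insl3 and for the spermatogonial markers Etv5 and Kit, where 9.32% of all tested genes had groups apart. The 8 elongating spermatid markers summed to 16664 to 19830 CPM in KO and 17156 to 19286 CPM in WT. The part of these cell types in the values below was not tested. KO 2 and WT 1 stood apart from the other 4 libraries on the leading principal component, at 30.2 and 22.8 against -17.4 to -6.98. In RNA of whole testis, fewer cells of a type and less RNA per cell cannot be told apart.

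No difference between KO and WT testes passed the test for any of these 10 genes. Ccne2 had the largest fold change of the 10, at 1.24 times the WT level, and no other fold change lay outside 0.924 to 1.21. The fold change of Ccnb3 was the larger one without KO 2, without WT 3, without KO 2 and WT 1 together, in limma-voom and under the replicate block. Cyclin A1 and cyclin B2 were the most abundant of these transcripts in every library of either genotype. The comparison used edgeR's quasi-likelihood test over the 19320 genes that passed a low-count filter, which included all 10, with Benjamini-Hochberg adjustment over all of them and a threshold of 0.05. Over all tested genes 1 was called, 0.00518%, and it was the targeted gene.

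Cyclin A1 and cyclin A2 share the same kinases, and cyclin A1 is the form of male germ cells. Ccna1 (ENSMUSG00000027793, minus strand, chr3:55045469-55055501 in mm10) had 161, 159 and 135 CPM in KO libraries, against 156, 152 and 156 CPM in WT libraries. KO 3 was the lowest library and KO 1 the highest, so the groups overlapped. The means were 152 ± 14.2 CPM in KO and 155 ± 2.74 CPM in WT (SD, n = 3 each), which is a log2 fold change of -0.029 (95% interval -0.20 to 0.15). Ccna2, which dividing cells of most tissues use, lies elsewhere on chromosome 3 (ENSMUSG00000027715, minus strand, chr3:36564865-36572150). It had 9.79, 10.3 and 7.29 CPM in KO libraries, against 7.38, 9.97 and 9.52 CPM in WT libraries. Its lowest values stood in KO 3 and WT 1, and its log2 fold change was 0.025 (95% interval -0.34 to 0.40). In edgeR's test the adjusted p was 0.986 for Ccna1 and 0.992 for Ccna2.

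**Figure D1:**
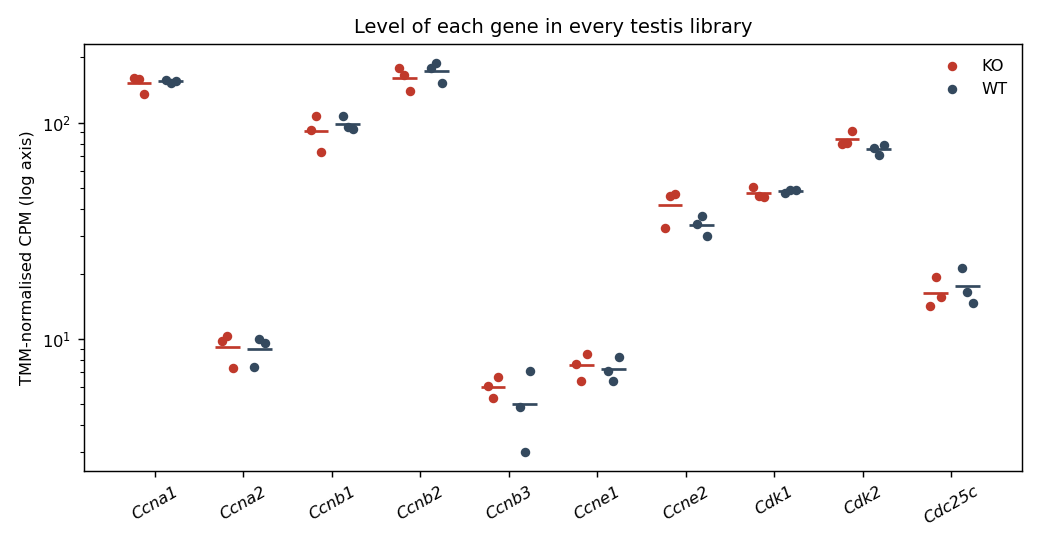
CPM after TMM scaling (log axis) of the 10 genes in each library, KO left of WT, with points for libraries and a line for the mean of 3. Ccna1 and Ccnb2 lay above 130 CPM in all 6 libraries, Ccna2, Ccnb3 and Ccne1 below 11 CPM, and the KO and WT points overlapped for every gene but Cdk2.

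The B-type cyclins bring CDK1 to the spindle and the chromosomes at division. Ccnb1 (ENSMUSG00000041431, minus strand, chr13:100778650-100786570) had 92.3, 108 and 72.8 CPM in KO libraries, against 107, 95.3 and 93.1 CPM in WT libraries. The KO libraries held its highest and its lowest value, and the log2 fold change was -0.11 (95% interval -0.37 to 0.14). Ccnb2 (ENSMUSG00000032218, minus strand, chr9:70407692-70421547) had 178, 167 and 140.0 CPM in KO libraries, against 178, 188 and 152 CPM in WT libraries. Within each genotype the lowest library was KO 3 or WT 3, and the log2 fold change was -0.097 (95% interval -0.31 to 0.12). Ccnb3, a large X-linked B-type cyclin needed for the first meiotic division of the mouse oocyte (ENSMUSG00000051592, minus strand, chrX:6979652-7041619), had 6.02, 5.33 and 6.68 CPM in KO libraries, against 4.83, 3.01 and 7.10 CPM in WT libraries. Its WT values spanned its KO values, and its log2 fold change of 0.27 had the widest interval of the 10 genes, from -0.26 to 0.81. It rested on single WT libraries: without WT 2 it was 0.0090, and without WT 3 it was 0.62. By edgeR's test the value without WT 3 had an unadjusted p of 0.0212, and it was not called at an adjusted p of 0.998. For each of these 3 genes edgeR's adjusted p was 0.967. Reads of the pseudogenes Ccnb1-ps and Ccnb2-ps, which share sequence with their parents, came to 1.21% to 1.93% of the Ccnb1 count and 0.445% to 1.31% of the Ccnb2 count across libraries.

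The promoters of these genes are shown for the transcripts that led in level and for the division kinase, because textbook regulation of division genes runs through CCAAT boxes, read by the factor NF-Y, and the cell cycle genes homology region (CHR, TTTGAA), read by the MuvB complexes. RefSeq windows of 300 bases, 250 before and 50 after the annotated start, were used for 7 of the 10 genes (build GRCm38.p6). The background was 32851 windows in all. No window was matched by symbol to Ccna2 or Ccne2. Cdc25c was excluded by choice, without a recorded reason. The counts below therefore do not cover the promoters of Ccna2, Ccne2 and Cdc25c. Both strands were searched for CCAAT and for TTTGAA, capitals mark the matches, and no matches shared a base. All 3 windows are read along the minus strand: Ccna1 at chr3:55055006-55055305, Ccnb2 at chr9:70421505-70421804 and Cdk1 at chr10:69352863-69353162. The RefSeq start of Ccna1 lies 446 bases inside the gene's span in the deposited table, and its window is therefore within that span, whereas the starts of Ccnb2 and Cdk1 lie within 26 bases of the deposited 5′ end.
Ccna1: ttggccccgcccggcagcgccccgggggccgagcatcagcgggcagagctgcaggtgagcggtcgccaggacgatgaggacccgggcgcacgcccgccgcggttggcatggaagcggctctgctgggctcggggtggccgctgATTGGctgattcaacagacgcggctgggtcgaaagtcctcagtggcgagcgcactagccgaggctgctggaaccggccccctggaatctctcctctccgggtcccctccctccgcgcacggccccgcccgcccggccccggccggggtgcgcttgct
Ccnb2: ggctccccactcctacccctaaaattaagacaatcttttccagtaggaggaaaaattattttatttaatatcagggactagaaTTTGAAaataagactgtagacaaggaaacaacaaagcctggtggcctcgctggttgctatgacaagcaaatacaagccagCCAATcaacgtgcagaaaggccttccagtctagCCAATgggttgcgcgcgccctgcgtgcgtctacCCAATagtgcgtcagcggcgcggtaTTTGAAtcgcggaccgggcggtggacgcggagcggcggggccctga
Cdk1: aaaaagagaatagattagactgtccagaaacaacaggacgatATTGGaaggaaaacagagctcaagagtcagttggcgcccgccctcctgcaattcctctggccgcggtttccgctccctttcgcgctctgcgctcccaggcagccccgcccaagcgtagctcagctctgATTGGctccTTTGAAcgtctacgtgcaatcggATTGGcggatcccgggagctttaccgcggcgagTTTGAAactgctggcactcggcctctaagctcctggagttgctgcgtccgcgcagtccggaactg
Ccnb2 and Cdk1 each held 3 CCAAT and 2 TTTGAA matches, and Ccna1 held 1 CCAAT match and 0 TTTGAA matches. Of the 7 windows 5 held CCAAT, where 37.4% of all windows did, and 2 held TTTGAA, where 17.9% did. At least 3 CCAAT matches were present in 3.37% of all windows, and CCAAT together with TTTGAA in 6.95%. Matched letters are a description of the sequence and do not show that a factor was bound in these testes.

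The E-type cyclins act with CDK2, and in mice their loss in the male germ line disturbs pairing of meiotic chromosomes. Ccne1 (ENSMUSG00000002068, minus strand, chr7:38097984-38107534) had 7.65, 6.41 and 8.53 CPM in KO libraries, against 7.10, 6.41 and 8.20 CPM in WT libraries. The ranges were nearly the same in both genotypes, and the log2 fold change was 0.057 (95% interval -0.30 to 0.42, edgeR adjusted p = 0.987). Ccne2 (ENSMUSG00000028212, plus strand, chr4:11191351-11204779) had 32.5, 45.9 and 46.6 CPM in KO libraries, against 34.0, 36.9 and 29.8 CPM in WT libraries. KO 2 and KO 3 lay above all WT libraries, whereas KO 1 lay below WT 1 and WT 2. The means were 41.7 ± 7.97 CPM in KO and 33.6 ± 3.57 CPM in WT (SD, n = 3 each), which is a log2 fold change of 0.31 (95% interval 0.028 to 0.60). Ccne2 was the 1 gene of the 10 with an unadjusted p under 0.05 (0.0336 in edgeR's test), and adjusted over all genes it was not called (adjusted p = 0.965). An unadjusted p under 0.05 was found for 4.63% of all tested genes. Without KO 2 and WT 1 its log2 fold change was 0.25, with an unadjusted p of 0.126 in edgeR's test. Leaving out KO 2, KO 3, WT 1 or WT 3 alone also took its unadjusted p above 0.05, to 0.0937, 0.158, 0.0532 and 0.128 in edgeR's test. Without KO 1 it was 0.00106 in edgeR's test, with a log2 fold change of 0.46 and an adjusted p of 0.871. Without WT 2 the unadjusted p was 0.0266 in edgeR's test, and Ccne2 was not called in either fit.

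CDK1 is the kinase of division itself and CDK2 a kinase of DNA synthesis and meiotic prophase. Cdk1 (ENSMUSG00000019942, minus strand, chr10:69335146-69352938) had 50.2, 45.6 and 45.3 CPM in KO libraries, against 47.4, 48.6 and 48.6 CPM in WT libraries. It varied less between the 6 libraries than the other 9 genes, its highest value being 1.11 times its lowest, and its log2 fold change was -0.036 (95% interval -0.22 to 0.15, edgeR adjusted p = 0.984). Cdk2 (ENSMUSG00000025358, minus strand, chr10:128697939-128705031) had 79.9, 80.7 and 91.0 CPM in KO libraries, against 76.1, 71.0 and 78.6 CPM in WT libraries. All KO libraries lay above all WT libraries, with KO 1 just above WT 3. The means were 83.9 ± 6.19 CPM in KO and 75.3 ± 3.85 CPM in WT (SD, n = 3 each), which is a log2 fold change of 0.16 (95% interval -0.027 to 0.34, edgeR adjusted p = 0.965). The two-sided exact permutation test of its CPM gave p = 0.1, the smallest that 3 against 3 allows. Cdk2 was 1 of 10 genes whose groups did not overlap, and this held for 9.32% of all tested genes. Without KO 2 and WT 1 its log2 fold change was 0.19, with an unadjusted p of 0.0816 in edgeR's test.

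CDC25C is a phosphatase that removes inhibitory phosphates from CDK1. Cdc25c (ENSMUSG00000044201, minus strand, chr18:34732997-34751533) had 14.2, 19.3 and 15.5 CPM in KO libraries, against 21.2, 16.5 and 14.6 CPM in WT libraries. WT 1 and KO 2, the pair that stood apart on the leading principal component, held its highest values. The log2 fold change was -0.094 (95% interval -0.43 to 0.24, edgeR adjusted p = 0.977).

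**Figure D2:**
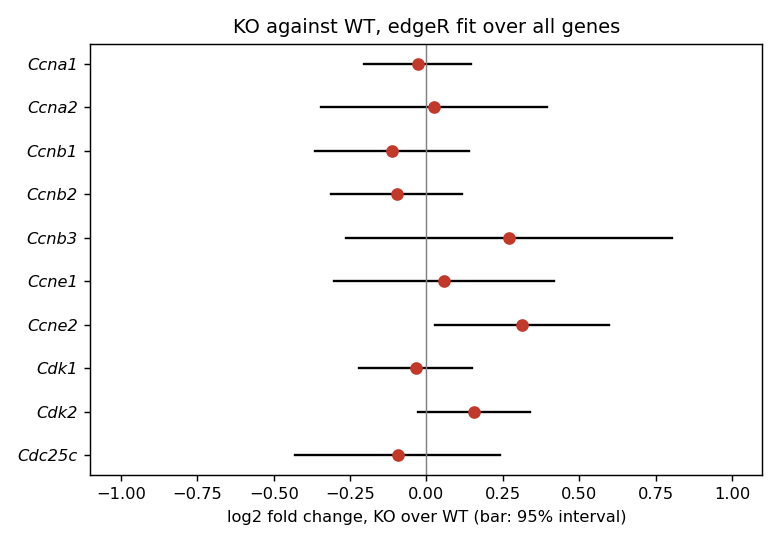
Log2 fold change of KO over WT from edgeR for each gene (point) with its 95% interval (bar). The interval of Ccne2 alone leaves out 0, from 0.028 to 0.60, and all 10 intervals lie between -1 and 1.

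As a group the 10 genes were balanced. Of the 10, 5 had a log2 fold change above 0 and 5 below, with a median of -0.0017, against -0.0025 over all tested genes, of which 49.3% lay above 0. The median absolute log2 fold change was 0.095 for the 10 genes, 0.11 for all tested genes and 0.084 for the 10479 tested genes within the same range of mean CPM. The 95% interval of the fold change lay within 2-fold in either direction for 10 of 10, against 84.4% of all tested genes and 99.5% of those in the same CPM range. It lay within 1.5-fold for 8 of 10, all but Ccnb3 and Ccne2, against 61.5% of all tested genes and 91.2% of those in the same CPM range.

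Levels between genes were compared per length, in CPM per kilobase of the gene length given in the deposited table. Over all 6 libraries Ccnb2 led with a mean of 109 CPM per kb (91.4 to 123), then Ccna1 with 83.6 (73.8 to 87.8) and Ccnb1 with 22.4 (17.3 to 25.5), and these ranges did not overlap. Cdk2 followed at 12.8 CPM per kb, Ccne2 at 10.8, Cdk1 at 9.65 and Cdc25c at 8.71, and neighbours in the order of these 4 overlapped. Ccne1 at 2.77 CPM per kb and Ccna2 at 2.21 overlapped, and Ccnb3 was lowest at 1.20, with a range below that of Ccna2. Ccnb2 lay at the 96.8th percentile of all tested genes on this scale, Ccna1 at the 95.7th and Ccnb3 at the 28.4th.

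The order depended on which length was used, since the deposited length counts untranslated and alternative exons that testis transcripts may not carry. Per kilobase of the longest annotated coding sequence (GENCODE M21), Ccnb2 at 140.0 CPM and Ccna1 at 121 overlapped, as did Cdk2 at 76.7 and Ccnb1 at 73.4. This scale divides the reads of the whole gene by the coding length alone, which can raise genes with long untranslated parts. Deposited and coding lengths were 6219 and 1038 bases for Cdk2, and 4934 and 891 bases for Cdk1. Cdk1 at 53.4 CPM per coding kb then stood above Ccne2 at 31.0 without overlap, and Cdc25c at 12.6 lay below Ccne2. Ccna2 at 7.14 and Ccne1 at 6.03 overlapped, and Ccnb3 at 1.31 was lowest on this scale too.

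Within each family the same member predominated in every library. Per gene length, Ccna1 made up 97.2% to 97.6% of cyclin A reads in KO libraries and 97.1% to 97.9% in WT libraries, and 93.8% to 95.5% per coding length over all 6. Ccnb2 made up 80.3% to 83.4% of cyclin B reads per gene length in KO and 80.8% to 84.1% in WT, but 62.2% to 67.8% per coding length over all 6. Ccnb3 stayed under 1.33% of cyclin B reads on either length. Ccne2 made up 76.4% to 84.5% of cyclin E reads per gene length in KO and 73.4% to 81.4% in WT. Cdk1 made up 38.5% to 44.2% of the sum of Cdk1 and Cdk2 in KO and 43.8% to 46.3% in WT.

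**Figure D3:**
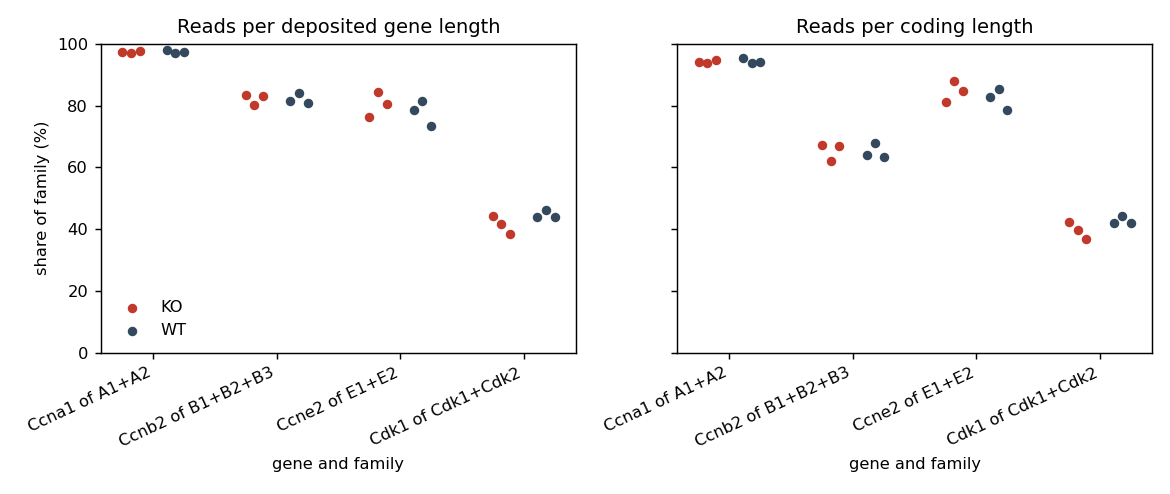
Share (%) of a gene in its family's reads in each library, KO left of WT, per deposited gene length (left panel) and per coding length (right panel). Ccna1 lies above 93% and Ccne2 above 73% in all libraries on either length, while Ccnb2 drops to at most 67.8% per coding length.

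Ratios of 2 genes within a library do not depend on the scaling between libraries, and 5 were compared. Cdk1 had 0.629, 0.564 and 0.498 reads per Cdk2 read in KO libraries, against 0.623, 0.685 and 0.618 in WT libraries. KO 2 and KO 3 lay below all WT libraries and KO 1 between them, and the log2 ratio was -0.83 ± 0.17 in KO and -0.64 ± 0.082 in WT (SD, n = 3 each). The difference of -0.19 had p = 0.3 in the two-sided exact permutation test (adjusted p = 1 over the 5 ratios). Ccne1 to Ccne2 differed by -0.24 on the log2 scale (exact permutation p = 0.5), Ccnb1 to Cdk1 by -0.092 (p = 0.7), Ccna1 to Ccna2 by -0.055 (p = 0.9) and Ccnb2 to Ccnb1 by 0.031 (p = 1). All 5 had overlapping groups and an adjusted p of 1, and 3 against 3 cannot go below 0.1.

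The library KO 3 was at an extreme for 8 of the 10 genes, a pattern picked out after the values were seen. It was the lowest of the 6 libraries for Ccna1, Ccna2, Ccnb1, Ccnb2 and Cdk1, and the highest for Ccne1, Ccne2 and Cdk2. Relative to the WT mean, KO 3 stood at -0.43 on the log2 scale for Ccnb1, -0.30 for Ccnb2 and -0.19 for Ccna1, and at 0.47 for Ccne2 and 0.27 for Cdk2. KO 3 was lowest for 17.0% of all tested genes and highest for 18.1%. Its spermatocyte markers summed to 3703 CPM, inside the WT range, and their median log2 value relative to WT was 0.016. Ybx2 held 1799 of these CPM, below its WT values of 1869 to 2197, while Piwil1 at 491 lay above its WT values of 361 to 428. The part of these markers in the pattern of KO 3 was not tested. Leaving out KO 3 turned the log2 fold change of Ccnb1 to 0.023 and that of Ccna1 to 0.047, neither of them called.

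**Figure D4:**
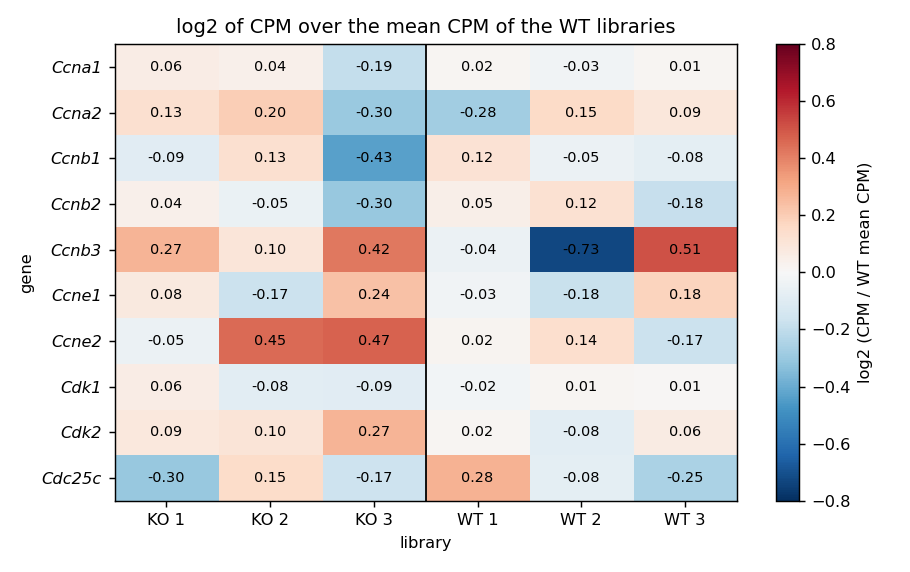
Log2 of each library's CPM over the mean of the WT libraries, genes in rows, KO libraries left of WT. KO 3 is at -0.43 for Ccnb1 and 0.47 for Ccne2, and the widest spread within WT is that of Ccnb3, from -0.73 to 0.51.

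Regulators of these kinases and nearby cell cycle steps were compared from 4 lists of other genes, 84 in all, of which 83 were tested. None was called in either direction, and 0 of the 83 had an unadjusted p under 0.05 in edgeR's test, where 4.63% of all tested genes did. With other settings or with libraries left out, that count ran from 0 (limma-voom) to 3 (without WT 1). The groups did not overlap for 3 of the 83, Cks1b, Rbl2 and E2f1, where 9.32% of all tested genes had groups apart. Of the 83 genes 37 had a log2 fold change above 0 and 46 below, with a median of -0.021.

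Around CDK1, 22 genes were tested, 6 with a log2 fold change above 0 and 16 below, with a median of -0.067. Cks1b, a small subunit that binds cyclin-dependent kinases, had 7.54, 6.24 and 6.51 CPM in KO libraries, against 8.04, 9.31 and 8.04 CPM in WT libraries. Its KO values lay below all WT values, and its log2 fold change was -0.32 (95% interval -0.66 to 0.012, edgeR adjusted p = 0.965). Plk1, a kinase of division, had 96.3, 94.2 and 69.9 CPM in KO libraries, against 101, 98.5 and 93.0 CPM in WT libraries, with KO 3 again lowest. Mybl1, encoding the transcription factor A-MYB that male meiosis needs in mice, had a log2 fold change of 0.14, and Mastl, the Greatwall kinase that restrains a phosphatase opposing CDK1, had 0.20. The CDK1 phosphatase genes Cdc25a and Cdc25b had 0.0015 and 0.29, and Cdc25b was scarce at 2.10 CPM in KO and 1.72 CPM in WT. Wee1 and Pkmyt1, the kinases that place the inhibitory phosphates on CDK1, had -0.088 and -0.11, and Wee2 was not tested for lack of reads. Hspa2, a testis chaperone that mouse spermatocytes need for CDK1 to assemble with cyclin B, had 1434 ± 48.0 CPM in KO and 1500.0 ± 65.0 CPM in WT (SD, n = 3 each), a log2 fold change of -0.065, and Cks2, which mouse meiosis needs, had -0.025. KO 3 was the lowest library for 11 of these 22 genes and KO 2 for 7, where KO 3 was lowest for 17.0% of all tested genes and KO 2 for 18.4%. In the other 3 lists KO 3 was lowest for 6 of 30, 4 of 19 and 1 of 12 genes.

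The next list took in the anaphase-promoting complex (APC/C), which destroys the B-type cyclins, and the spindle checkpoint that holds it back. It also held the chromatid separation genes Espl1, Pttg1, Sgo1 and Sgo2a. Of its 30 log2 fold changes, 16 were above 0 and 14 below, with a median of 0.020. They ranged from -0.15 to 0.11. Fzr1, an activator of the complex, had -0.14, and Cdc20, the activator used at division, had -0.035. Fbxo43, which encodes the APC/C inhibitor EMI2, had 25.8 ± 5.76 CPM in KO and 24.1 ± 3.13 CPM in WT (SD, n = 3 each), a log2 fold change of 0.094. The checkpoint kinase gene Ttk had 0.11, the separase gene Espl1 -0.11 and Ube2s, a ubiquitin-conjugating enzyme of the complex, -0.083.

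The list of 19 CDK2 partners, CDK inhibitors and related genes had 10 log2 fold changes above 0 and 9 below, with a median of 0.014. Not all of its inhibitors act on CDK2. Spdya, a non-cyclin activator that places CDK2 at telomeres in mouse spermatocytes, had 77.6, 84.4 and 76.9 CPM in KO libraries, against 79.0, 76.4 and 69.5 CPM in WT libraries. The groups overlapped, and its log2 fold change was 0.088 (95% interval -0.095 to 0.27). Skp2, Cul1 and Rbx1, parts of the ubiquitin ligase that acts on the CDK inhibitor p27, had 0.15, 0.092 and -0.13. The CDK inhibitor gene Cdkn2d had 0.12, and Ccnb1ip1, encoding the crossover protein HEI10, had 0.12. Of 12 genes of the earlier G1 step, Rbl2, a relative of the retinoblastoma gene, had 70.4, 74.5 and 74.8 CPM in KO libraries, against 66.7, 66.1 and 61.9 CPM in WT libraries. Its KO values lay above all WT values, and its log2 fold change was 0.17 (95% interval -0.00072 to 0.35, edgeR adjusted p = 0.965). Cdk4, E2f1 and Rbl1 had -0.16, -0.24 and -0.10, and the list's median was -0.068.

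**Figure D5:**
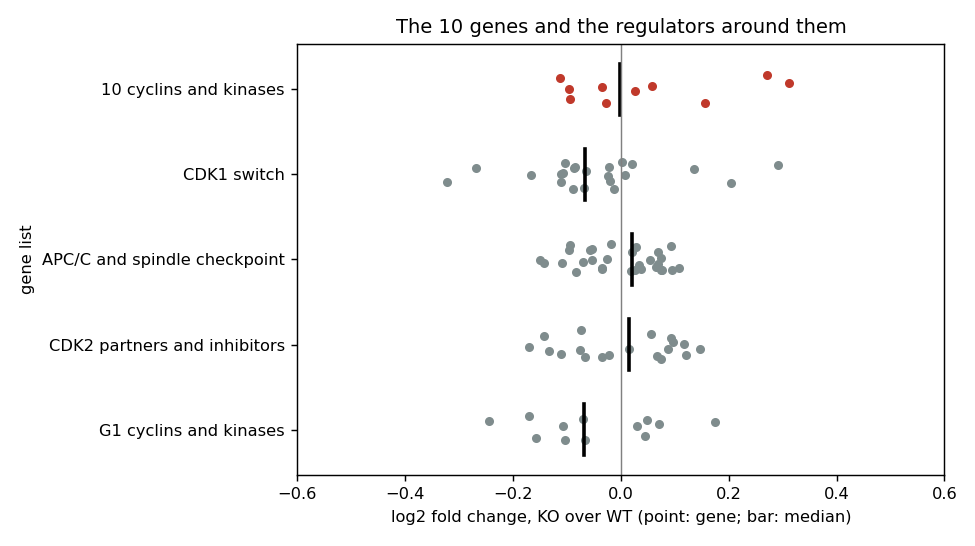
Log2 fold change of KO over WT for the 10 genes (top row) and the tested genes of 4 lists of regulators, with points for genes and a bar for the median. The medians lie between -0.068 and 0.020, and the points between -0.32 for Cks1b and 0.31 for Ccne2.

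Genes with the most similar pattern were sought by the SD, over the 6 libraries, of the log2 ratio of their CPM to that of Ccna1 or Cdk1, among the 11039 other protein-coding genes whose mean reached 5 CPM. For Ccna1 these were Pla2g2c (SD 0.014), Mrps18a (0.024) and Leng8 (0.026), where the median over all of those genes was 0.16. For Cdk1 they were Dmrtb1 (SD 0.020), a germ cell transcription factor gene, Exosc10 (0.021) and Tbl2 (0.024), where the median was 0.14. The measure favours genes with little spread, and it rests on 6 libraries. The named genes hold the smallest of 11039 values in each search. Whether SDs this small arise from the search alone was not tested.

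Some of these counts could hold reads of neighbours, since the sources used here do not say whether counting used strand. Ccna1, Ccna2, Ccne2, Cdk2 and Cdc25c each overlap 1 gene on the opposite strand. The overlap of Ccne2 with Ints8 spans 5622 bases of genome, introns included, and Ints8 averaged 28.2 CPM with a log2 fold change of 0.073. Cdk2 shares 837 bases with Pmel, at 19.3 CPM and a log2 fold change of -0.10.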

How the data were processed

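RNA was taken with TRIzol and prepared with a VAHTS mRNA-seq v2 kit, per the labels' protocols. HISAT2 2.0.0 and mm10 are named in the submitters' processing notes. The deposited values are raw read counts for each Ensembl gene, as whole numbers, with the gene's length. The sources used here do not give the counting tool, annotation release or strand setting. Columns were matched to samples by genotype and replicate number.

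Genes were filtered with edgeR's filterByExpr (minimum count 10), which left 19320 of 54532, scaled by TMM (factors 0.992 to 1.01), and tested with glmQLFit and glmQLFTest (edgeR 4.0.16, R 4.3.3), KO against WT, without covariates, Benjamini-Hochberg threshold 0.05. Intervals are 95% and use the moderated standard errors. Ratios used counts + 0.5. The test was tested on simulated counts. Together, 3 simulations of 19320 genes held 201, 201 and 198 genes changed 1.5-fold, 2-fold and 4-fold. There it called 41.3% of 1.5-fold, 71.6% of 2-fold and 94.4% of 4-fold changes, and 0.0349% of unchanged genes. Spread came from the trend over all genes, without a pattern like that of KO 2 and WT 1. Many changed genes ease the Benjamini-Hochberg cutoff, and in the real data 1 gene was called. The rates therefore do not give the power for the 10 genes. GENCODE M21 gave coding lengths, and its gene coordinates equalled the deposited ones for all of the 10 genes but Cdc25c.

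Alternatives were DESeq2 size factors or library size, no filter or at least 5 CPM, DESeq2 1.42.0, limma-voom (limma 3.58.1), a replicate block, and leaving out libraries. Named regulators were the 4 with the smallest p in each list plus a fixed set. The 10 genes, the lists and the alternatives were chosen with earlier results of these data known.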

Additional observations from a re-analysis of the deposited data

How the results depend on the processing

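None of the 10 genes and none of the regulator genes was called under any of the 14 alternatives, and the log2 fold changes of Ccnb2, Ccnb3, Ccne2, Cdk1 and Cdk2 kept their sign in all of them, though some came close to 0. Ccnb2 ranged from -0.18 to -0.0036 (without KO 3), Ccnb3 from 0.0090 (without WT 2) to 0.62 (without WT 3) and Cdk1 from -0.085 to -0.0088. Ccne2 ranged from 0.22 to 0.46, with adjusted p from 0.462 up, and Cdk2 from 0.094 to 0.19. The count of genes called over all genes, 1 with all libraries, was 2 in DESeq2, 50 with no low-count filter, 9 without WT 1 and KO 2 together, and 1 to 3 with each library left out (3 when WT 2 was dropped and 2 each when WT 3 or KO 3 was). The cause was not tested. Signs that turned were all of small, uncalled values. With each library left out, the log2 fold change ran from -0.072 (without KO 1) to 0.047 (without KO 3) for Ccna1, from -0.097 (without WT 1) to 0.16 for Ccna2, from -0.25 to 0.023 (without KO 3) for Ccnb1, from -0.042 (without KO 3) to 0.16 for Ccne1 and from -0.23 to 0.069 (without WT 1) for Cdc25c. The log2 ratio difference ran from -0.15 to 0.087 for Ccna1 to Ccna2, from -0.022 to 0.14 for Ccnb2 to Ccnb1 and from -0.25 to 0.033 for Ccnb1 to Cdk1. It ran from -0.43 (without KO 1) to -0.053 (without KO 2) for Ccne1 to Ccne2 and from -0.27 to -0.11 for Cdk1 to Cdk2. Without WT 1 and KO 2 together Ccna2 was at -0.19 and the ratio of Ccna1 to Ccna2 at 0.14.

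The replicate numbers were not taken to pair the samples: deviations of same-numbered KO and WT libraries correlated with -0.17, -0.029 and 0.11. Blocking on the replicate number, 1 gene was called over all genes and 0 of the 10.

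The lowest counts were those of Ccnb3, 54 to 129 per library, whose biological coefficient of variation of 0.20 was the highest of the 10.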
